A study of Mus musculus with 22 samples.

Results

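The 5 genes Nefl, Nefm, Nefh, Ina and Prph encode the intermediate filaments of neurons: the neurofilament light, medium and heavy chains, alpha-internexin and peripherin. They were chosen by name, as 5 of 55450 annotated genes and of 21951 protein-coding genes. On the GRCm38 assembly the spans are chr14:68083863-68089095, plus strand, for Nefl (ENSMUSG00000022055), chr14:68082590-68124846, minus, for Nefm (ENSMUSG00000022054), chr11:4938754-4948064, minus, for Nefh (ENSMUSG00000020396), chr19:47014698-47025327, plus, for Ina (ENSMUSG00000034336) and chr15:99055174-99058978, plus, for Prph (ENSMUSG00000023484). Every hnRNP A1 footprint that overlapped the annotated span of a gene by at least 1 nt was taken as its footprint. This gave 67 footprints covering 8458 nt, of 136207 footprints over all mice.

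The study mapped RNA bound by hnRNP A1, a nuclear RNA-binding protein of splicing and mRNA handling, in the spinal cords of wild-type female C57Bl/6 mice by CLIPseq. In this method protein and RNA are crosslinked by ultraviolet light, the protein is pulled down with an antibody and the RNA attached to it is sequenced. The 7 mice with experimental autoimmune encephalomyelitis (EAE), a model of multiple sclerosis, had received a myelin oligodendrocyte glycoprotein peptide in complete Freund's adjuvant together with pertussis toxin, and were taken 15 days after clinical onset. They fell into mild EAE (n = 3, clinical scores 1 to 1.5) and severe EAE (n = 4, clinical scores 2.5 to 3), beside age-matched naïve mice (n = 3) with no clinical score in the labels. The labels gave 12 weeks of age at immunization in one place and 8 weeks in another. They named antibody clone 9H10 where the study's methods named 4B10. Each mouse gave 1 list of footprints, which are stretches rebuilt from the reads as contigs, after sites of the mouse's input RNA or of a pooled control IgG pulldown had been taken away. A footprint has a start and an end but no read count and no strand, so what is reported here is how many nt of a gene were covered. Removal of sites also seen in input means that a gene without a footprint may still be bound, and this bears most on abundant RNAs.

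Neurofilaments fill the axon of large neurons and set its calibre. The light chain forms the core with alpha-internexin or peripherin, while the long, heavily phosphorylated tails of the medium and heavy chains project sideways. Peripherin is abundant in neurons that send an axon to the periphery, among them spinal motor neurons. All 5 proteins share a coiled-coil rod, and neurofilament light chain released into blood and cerebrospinal fluid is a widely used marker of axonal injury. The amounts of these proteins depend on the stability and transport of their mRNAs, to which several RNA-binding proteins attach.

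Lists differed in length far more among severe EAE mice than elsewhere. The naïve mice held 17119, 17454 and 17494 footprints, the mild EAE mice 14534, 9751 and 24433, and the severe EAE mice 2670, 209, 673 and 31870. Severe EAE 4 had the longest list of all mice, and by the study's account that animal had been in remission shortly before it was taken. Its pulldown library also ranked highest in the study's read totals, followed by that of Mild EAE 3, whose list was next in length. List length did not follow these totals throughout: Naïve 2 ranked lowest, and Severe EAE 2, with the shortest list, lay above every naïve mouse. Among input libraries, that of Severe EAE 2 was the deepest. The part of read depth in list length was not tested. Of 8 neuronal marker genes (Rbfox3, Snap25, Syt1, Map2, Tubb3, Uchl1, Eno2 and Stmn2), 7 or 8 had a footprint in each naïve and mild EAE mouse and in Severe EAE 4, against 3, 0 and 1 in Severe EAE 1, 2 and 3. Their summed covered nt ran from 4058 to 7503 in naïve, from 2756 to 5010 in mild EAE and from 0 to 12678 in severe EAE mice. The 4 markers of cholinergic motor neurons (Chat, Slc18a3, Isl1, Mnx1) had no footprint in any mouse. Of 6 oligodendrocyte markers, 5 or 6 were footprinted in each naïve and mild EAE mouse and 3, 1, 1 and 6 in Severe EAE 1 to 4. Of 5 astrocyte markers, 2 or 3 were in naïve, 3 to 5 in mild EAE and 3, 0, 1 and 5 in severe EAE mice. Of 10 microglial and leukocyte markers, 1 was footprinted in each naïve mouse (172 to 309 nt), 5 to 7 in each mild EAE mouse (1158 to 2840 nt), and 2, 0, 3 and 7 in Severe EAE 1 to 4 (0 to 4687 nt), with Cd3e and Aif1 at 0 throughout. Of 4 peripheral nerve markers, 0 or 1 was footprinted in naïve mice (0 to 100 nt), 1 to 3 in mild EAE mice (127 to 856 nt) and 0 to 3 in severe EAE mice (0 to 1023 nt), with Pmp2 at 0. The part of these differences in the results below was not tested, and in whole cord fewer neurons, less filament mRNA per neuron and less binding cannot be told apart.

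All 5 filament genes carried footprints. The union over mice covered 22.7% of the coding sequence and 59.1% of the 3′ untranslated region of Nefl, 26.0% and 13.2% for Nefm, 39.7% and 44.6% for Nefh, 42.2% and 38.4% for Ina, and 32.0% and 0% for Prph. Of all protein-coding genes, 45.6% had a footprint in at least 1 mouse, and 31.7% of those had one in at least 5 mice. Nefl, Nefh, Ina and Prph were footprinted in 5, 6, 5 and 5 of 10 mice. The same count was 7 for Nefm by its annotated span and 6 once the footprints inside Nefl were set aside. Per exon length, the mean over 10 mice was 66.2 covered nt per 1000 exonic nt for Nefh, 56.5 for Ina, 53.8 for Nefl, 46.3 for Prph and 27.1 for Nefm. The median of the 9999 protein-coding genes with any footprint was 7.14 on the same scale. This scale takes the exons of all transcripts, so the Nefm value counts a footprint of 338 nt described below under Nefl. Per 1000 nt of the main transcript, Nefm was at 36.9 and Prph at 52.6, with the other genes unchanged. Spread among mice was as large as these levels: per 1000 nt of the main transcript the 10 mice ranged from 0 to 240 for Nefh and from 0 to 243 for Ina, so the order of the genes does not exceed it.

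Together the 5 genes had 7 footprints (699 nt) in Naïve 1, 5 (468 nt) in Naïve 2 and 10 (1292 nt) in Naïve 3. Mild EAE mice had 11 (1659 nt), 4 (415 nt) and 11 (1406 nt). Severe EAE 1, 2 and 3 had 0, and Severe EAE 4 had 19 (2519 nt), the largest total. Per 100000 nt covered in the mouse's whole list, the values were 31.5, 22.8 and 59.1 nt in naïve, 107, 35.9 and 47.1 nt in mild EAE and 60.8 nt in Severe EAE 4, so Severe EAE 4 lay inside the range of the other groups on that scale. The absence of all 5 genes in Severe EAE 1, 2 and 3 stands beside a background in which 14.9% of footprinted protein-coding genes had a footprint in any of those 3 mice, and 64.8% in Severe EAE 4. That background includes genes footprinted in 1 mouse alone, whereas each of the 5 genes was in at least 5 mice, so it is not a matched one.

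**Figure D1:**
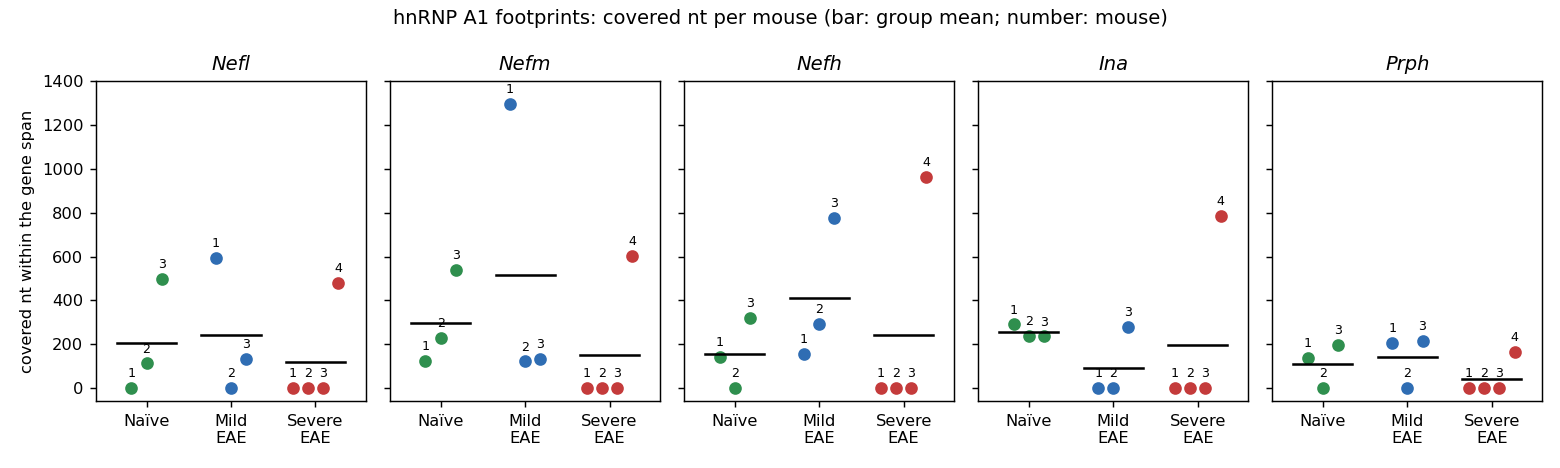
Covered nt within the span of each gene (vertical axis) for every naïve, mild EAE and severe EAE mouse. Points are mice with their number, the bar is the group mean. Severe EAE 1, 2 and 3 sit at 0 in each panel, Severe EAE 4 lies among or above the other groups, and the Nefm panel includes the footprints of Nefl, whose gene lies inside the Nefm span.

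Footprints of the filament genes lay almost wholly in exons. Of the 67, 48 had most of their length in coding sequence, 19 in the 3′ untranslated region and 0 in an intron, and only 11 of the 8458 nt were intronic. These lay in 3 footprints that ran from an exon into an intron, by 4 and 6 nt at Nefh exon 3 in Mild EAE 2 and Severe EAE 4 and by 1 nt in Prph in Naïve 1. The exonic share was 99.9% of covered nt, against 66.1% over the footprints of all protein-coding genes. In each of the 7 mice with filament footprints the exonic share of these genes was higher than that mouse's share over all protein-coding genes, by 34.4 ± 11.9 percentage points (SD, n = 7; range 17.5 to 49.7), which is given as a description. The spans of the filament genes were 73.8% intronic, most of it in Nefm, and those of all protein-coding genes 89.8%, and the part of this gap in the difference was not tested.

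**Figure D2:**
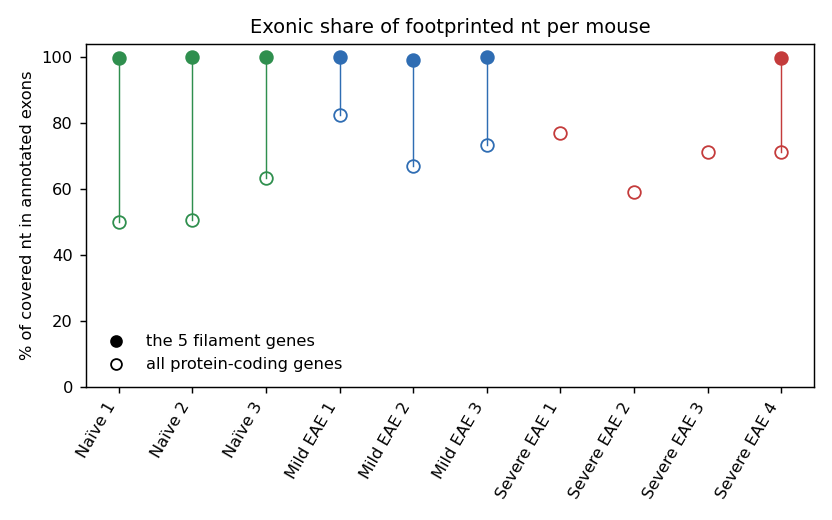
Percent of covered nt that lie in annotated exons (vertical axis), per mouse, for the 5 filament genes (filled) and for all protein-coding genes (open). The filled points lie between 99.0% and 100%, above the open point of the same mouse in all 7 mice that have both.

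Several footprints also ended where exons end. In 32 of 67 (47.8%; all protein-coding genes 55.2%), at least 1 end fell exactly on an annotated exon edge. There were 14 cases in 6 mice in which 1 footprint stopped at the last base of an exon and the next began at the first base of the following exon, as a contig over a spliced junction would leave. Prph had 5 of these, Nefh 4, Ina 3, Nefm 2 and Nefl 0.

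Sites recurred between mice. Of the 67 footprints, 52 (77.6%) overlapped a footprint of another mouse by at least 2 nt, against 60.6% over all protein-coding genes. By mouse the pair ran from 75% against 77.7% in Mild EAE 2 and 40% against 38.4% in Naïve 2 to 100% against 60.9% in Mild EAE 3. That background includes genes footprinted in 1 mouse alone, whereas each of the 5 genes was in at least 5 mice, so it is not matched. There were 23 stretches covered in at least 2 of the 10 mice, 15 in coding sequence and 8 in 3′ untranslated regions. Of the 23, 12 held naïve and EAE mice together, 10 EAE mice alone and 1 naïve mice alone, and 16 included Severe EAE 4. EAE mice numbered 7 and naïve mice 3, and Severe EAE 4 and Mild EAE 3 had the longest lists. The same split over all genes was not made. The 3 most often covered, each in 4 mice, were exon 2 of Nefm, exon 3 of Nefh with a few intronic bases before it, and exon 4 of Prph.

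**Figure D3:**
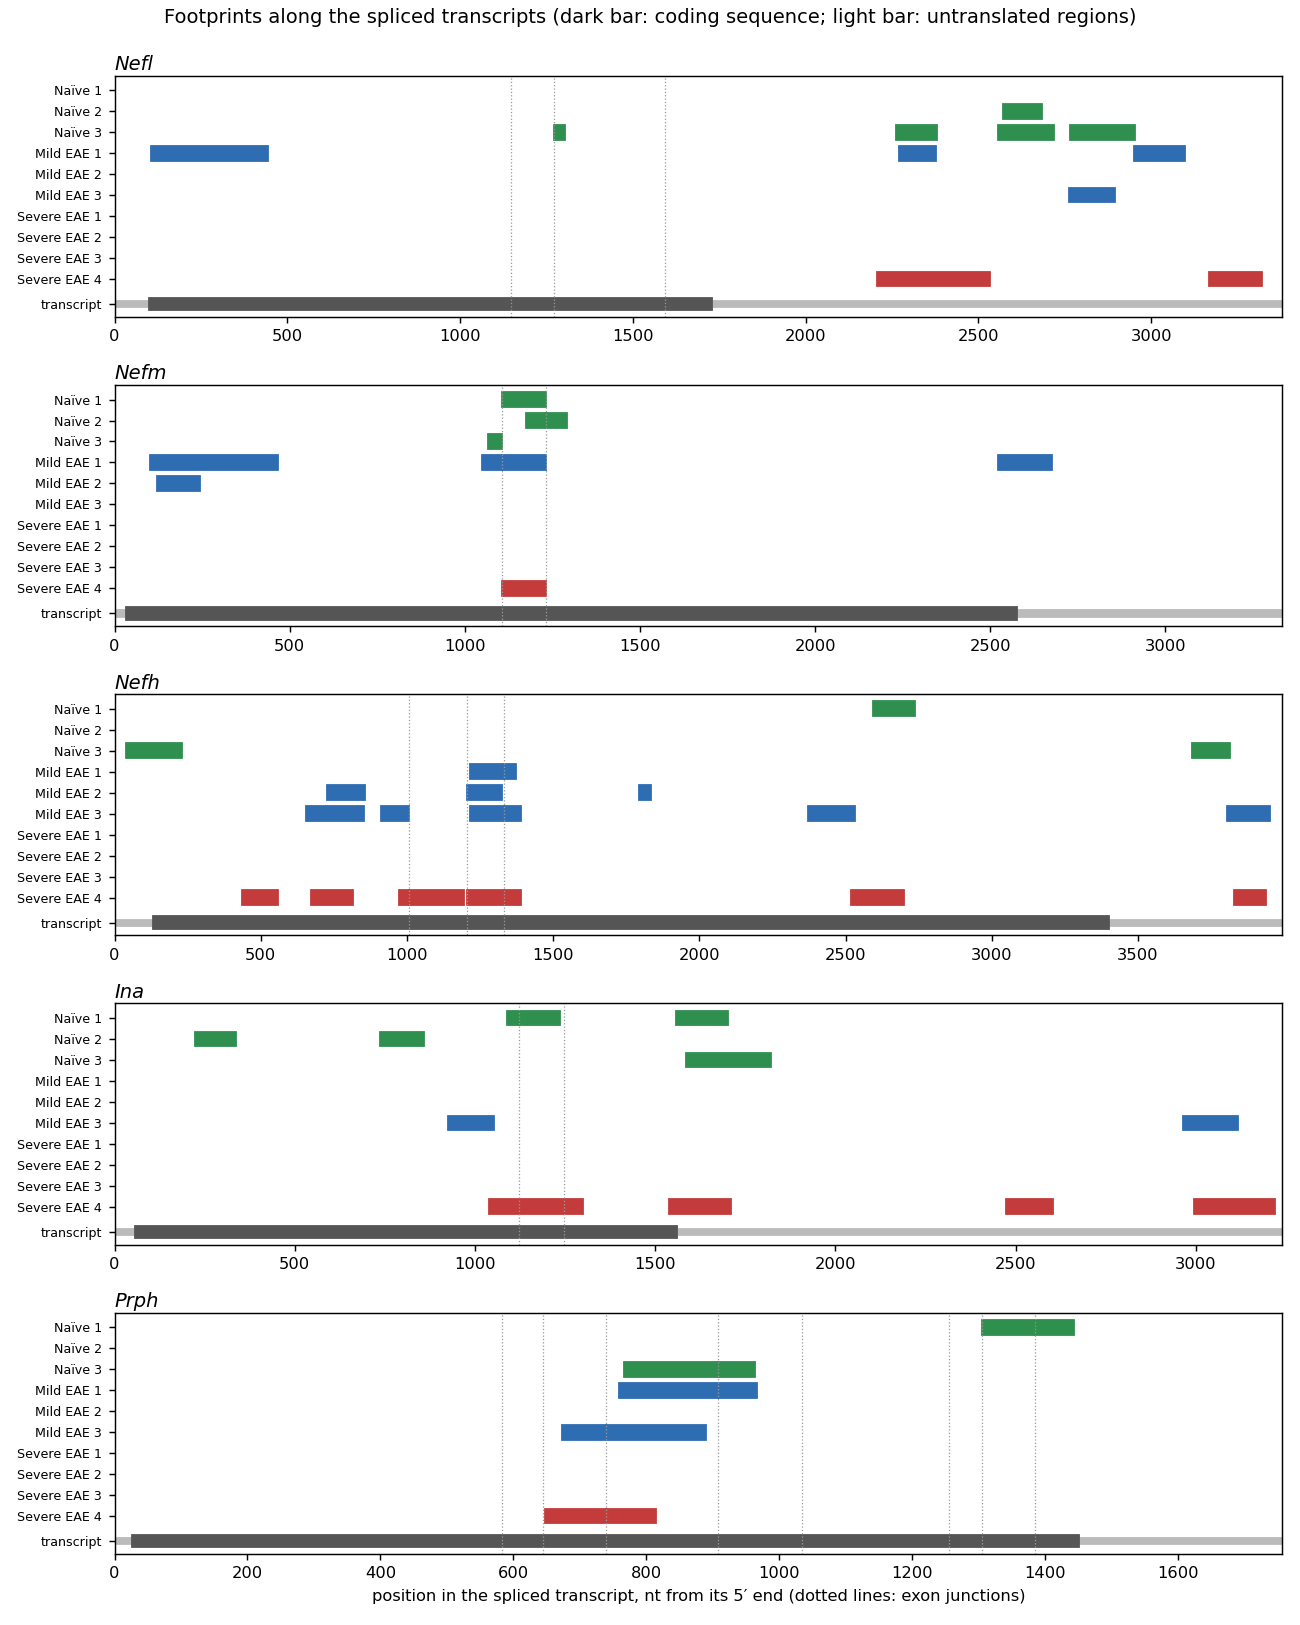
Footprints of every mouse (rows) along the spliced main transcript of each gene, with the horizontal axis in nt from the transcript's 5′ end. Coloured boxes are footprints (green naïve, blue mild EAE, red severe EAE), the bar at the bottom is the transcript with its coding sequence in dark grey, and dotted lines are exon junctions. Nefl footprints crowd into the 3′ untranslated region, Prph footprints stay in coding sequence, and Nefm and Nefh have a site in 4 mice at the short exon in the middle.

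The recurrent Nefm and Nefh sites fell on homologous exons. Nefl, Nefm, Nefh and Ina each have 1 exon of exactly 125 nt, which encodes the end of the conserved rod. That of Nefl, without a footprint, and that of Ina, with footprints, are shown so that a covered and an uncovered copy can be compared. They are printed 5′ to 3′ on the plus strand, from GRCm38 (chr14:68085974-68086098 for Nefl and chr19:47021833-47021957 for Ina), and capitals mark the 95 of 125 bases (76.0%) that are identical in both.
Nefl exon 2: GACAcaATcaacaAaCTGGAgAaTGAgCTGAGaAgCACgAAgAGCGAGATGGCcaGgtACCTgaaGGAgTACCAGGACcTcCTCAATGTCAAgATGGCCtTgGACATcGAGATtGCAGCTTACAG
Ina exon 2: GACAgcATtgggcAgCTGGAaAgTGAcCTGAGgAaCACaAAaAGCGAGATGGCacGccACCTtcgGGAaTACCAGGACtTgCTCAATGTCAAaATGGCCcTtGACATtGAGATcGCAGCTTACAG

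Nefm exon 2 was covered in full, 125 nt, in Naïve 1, Mild EAE 1 and Severe EAE 4, and over 57 nt in Naïve 2. Nefh exon 3 was covered over 116, 118 and 116 nt in the 3 mild EAE mice and in full in Severe EAE 4, and over 0 nt in the 3 naïve mice. Ina exon 2 was covered over 114 nt in Naïve 1 and in full in Severe EAE 4. Nefl exon 2 was covered in no mouse. None of the 4 exons held UAG, a core motif of hnRNP A1. AGGU occurred once in Nefl exon 2 and not in the exons of Nefm, Nefh and Ina. The 57 nt covered in Naïve 2 matched a second place in the genome at 92.9% identity over 56 aligned bases, in Prph. By sequence alone, reads from it are thus less certain to be from Nefm. In the same mouse a 60-nt footprint met it across the junction of Nefm exons 2 and 3, as a contig spliced in Nefm would leave. The 57-nt footprint was the only one of the 5 genes with a match of at least 90% identity over 80% of its length outside its own gene.

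**Figure D4:**
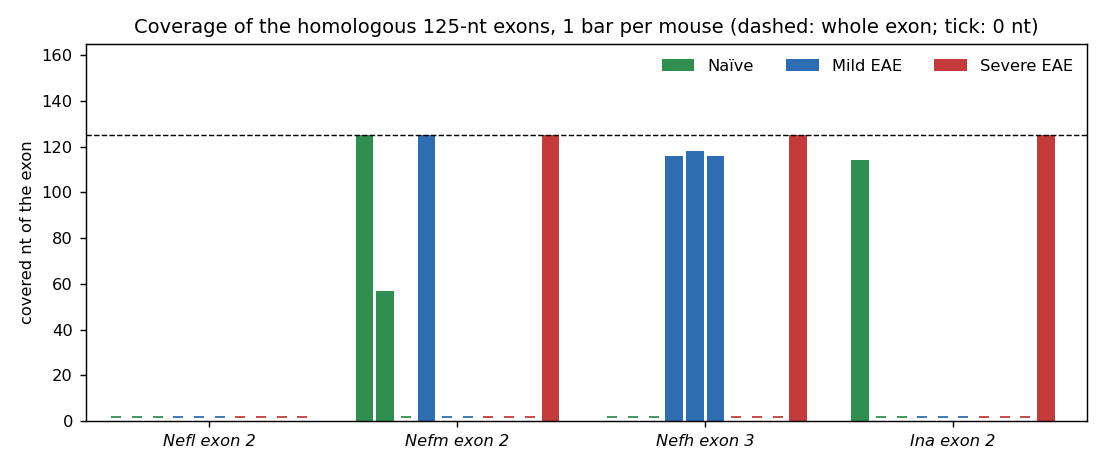
Covered nt (vertical axis) of the homologous 125-nt exon of 4 filament genes, with 1 bar per mouse in the order naïve 1 to 3 (green), mild EAE 1 to 3 (blue) and severe EAE 1 to 4 (red). The dashed line is the whole exon. Nefm, Nefh and Ina reach 125 nt in 3, 1 and 1 mice, Nefh is covered in the 3 mild EAE mice and in no naïve mouse, and Nefl is covered in none.

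Nefl, the light chain that every neurofilament needs, was footprinted mainly after its stop codon. Of its 11 footprints, 9 lay in the 3′ untranslated region, which held 79.6% of its 1818 covered nt. Covered length was 0, 113 and 500 nt in Naïve 1 to 3, 594, 0 and 132 nt in Mild EAE 1 to 3, and 0, 0, 0 and 479 nt in Severe EAE 1 to 4. Each group thus held both a mouse at 0 and a mouse at 479 nt or more, and the groups overlapped. The means were 204 ± 262 nt (SD, n = 3), 242 ± 312 nt (n = 3) and 120 ± 240 nt (n = 4). EAE mice (172 ± 256 nt, n = 7) differed from naïve mice by -32.2 nt (two-sided exact permutation test, p = 0.667), and by 116 nt without Naïve 3.

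The most often covered Nefl site was chr14:68087978-68088094, in Naïve 3, Mild EAE 1 and Severe EAE 4, of which 109 nt were common to all 3 mice. Those 109 nt held 5 UAG, or 45.9 per 1000 nt, against 12.1 per 1000 nt over the whole 3′ untranslated region of 1651 nt. Its richest 30 nt, chr14:68088025-68088054 on the plus strand, hold 3 of them, in capitals, and are printed because all 3 footprints covered them and the motif recurs there.
Nefl 3′ untranslated region: ctgagggaTAGacaaaTAGgtcaagtcTAG
Naïve mice shared a neighbouring stretch of 113 nt, chr14:68088286-68088398, in Naïve 2 and 3, which held 0 UAG. Further along, footprints of 189 nt in Naïve 3 and 132 nt in Mild EAE 3 also held 0 UAG. Those of 147 nt in Mild EAE 1 and 153 nt in Severe EAE 4 held 4 and 2. Mild EAE 1 also had a footprint of 338 nt at chr14:68083970-68084307 in the first coding exon. Nefm-202, an Nefm transcript whose last exon runs across this part of Nefl on the opposite strand, covers it too, and without strand the source of those reads cannot be told apart.

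Nefm, the medium chain, was read outside the Nefl gene, since the annotated span of Nefm (chr14:68082590-68124846) contains all of Nefl through that same transcript. The span also contains the pseudogene Gm19216, which no footprint overlapped. Outside Nefl, 9 of 10 Nefm footprints were coding. Naïve 1 to 3 had 125, 117 and 40 covered nt, Mild EAE 1 to 3 had 701, 122 and 0 nt, and Severe EAE 4 had 125 nt with 0 nt in the other severe EAE mice. Mild EAE 1 stood above every other mouse, and the rest of the mild EAE mice lay inside or below the naïve range. Counted by the whole span, the means were 298 ± 216 nt in naïve, 516 ± 674 nt in mild EAE and 151 ± 302 nt in severe EAE mice. EAE minus naïve was 9.24 nt (exact permutation p = 0.992) by the whole span and 41.4 nt (exact permutation p = 0.942) outside Nefl. Without Mild EAE 1 the whole-span difference was -155 nt (exact permutation p = 0.405), and without Naïve 3 it was 130 nt.

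Mild EAE 1 and 2 shared 122 nt of Nefm exon 1 that no other mouse covered. It encodes part of the head, which precedes the rod, and its limit to mild EAE mice is a description of 2 mice.

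Nefh, the heavy chain with the longest tail, had the most footprints of the 5 genes, 22, of which 19 were coding. Covered length was 144, 0 and 319 nt in Naïve 1 to 3, 157, 293 and 777 nt in Mild EAE 1 to 3, and 0, 0, 0 and 963 nt in Severe EAE 1 to 4. All 3 mild EAE mice and 2 of 3 naïve mice had a footprint, and their ranges overlapped. The means were 154 ± 160 nt, 409 ± 326 nt and 241 ± 482 nt in naïve, mild and severe EAE mice. Mild EAE minus naïve was 255 nt (exact permutation p = 0.4, where 3 against 3 mice allow no p below 0.1), and EAE minus naïve 159 nt (exact permutation p = 0.592). The first was 70.7 nt without Mild EAE 3 and the second 50.2 nt without Severe EAE 4.

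The Nefh footprints of mild EAE mice fell at like places. Beside exon 3, covered over at least 116 nt in each of the 3, Mild EAE 2 and 3 shared 127 nt of exon 1 (chr11:4947211-4947337) and Mild EAE 1 and 3 shared the first 41 nt of exon 4 (chr11:4941375-4941415), which is joined to exon 3 in the mRNA. Severe EAE 4 overlapped each of the 3 stretches and no naïve mouse did. How often this holds over all genes was not counted. The exon 1 stretch, in the rod and on the minus strand, is shown with its single AGGT in capitals.
Nefh exon 1: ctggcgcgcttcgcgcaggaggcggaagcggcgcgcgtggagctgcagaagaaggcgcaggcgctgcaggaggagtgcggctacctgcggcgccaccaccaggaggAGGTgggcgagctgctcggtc
Footprints that ran up to the junction of exons 3 and 4 from both sides were present in Mild EAE 1, Mild EAE 3 and Severe EAE 4, and Severe EAE 4 had another such pair at the junction of exons 1 and 2.

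Naïve 3 had 192 nt near the start of exon 1 (chr11:4947833-4948024) and 127 nt in the 3′ untranslated region, of which 10 nt were also covered in Mild EAE 3. Naïve 1 had 144 nt in the tail repeats, a region of exon 4 in which lysine, serine and proline recur and are heavily phosphorylated. Counted as AAGTCNCC on the gene's strand, exon 4 held 34 copies between chr11:4939952 and chr11:4941054, or 12.8 per 1000 nt of the exon. Within these 1103 nt, 4 footprints from 4 mice (Naïve 1, Mild EAE 2, Mild EAE 3 and Severe EAE 4) covered 408 nt, or 37.0%. The 105 nt common to Naïve 1 and Severe EAE 4, chr11:4940049-4940153 on the minus strand, are shown with the copy of the repeat motif in capitals.
Nefh tail: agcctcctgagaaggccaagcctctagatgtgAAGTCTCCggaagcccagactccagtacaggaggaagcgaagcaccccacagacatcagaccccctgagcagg
The 41-nt footprint of Mild EAE 2 in these repeats, chr11:4940914-4940954, matched 20 further places in the same gene at up to 97.6% identity, so its position within the repeats is uncertain.

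Ina, alpha-internexin, was the member with the least spread among naïve mice. Covered length was 291, 238 and 236 nt in Naïve 1 to 3, 0, 0 and 280 nt in Mild EAE 1 to 3, and 0, 0, 0 and 786 nt in Severe EAE 1 to 4. Of 7 EAE mice 5 were at 0, while Mild EAE 3 lay within the naïve range and Severe EAE 4 above it, so the groups overlapped. The means were 255 ± 31.2 nt, 93.3 ± 162 nt and 197 ± 393 nt. Mild EAE minus naïve was -162 nt (exact permutation p = 0.3) and EAE minus naïve -103 nt (exact permutation p = 0.742). Without Severe EAE 4, EAE minus naïve was -208 nt (exact permutation p = 0.0357), with an adjusted p over all genes of 0.289.

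Ina footprints were divided between coding sequence (8) and the 3′ untranslated region (6). Naïve 1 and 3 shared 118 nt soon after the stop codon, chr19:47023672-47023789, which Severe EAE 4 covered too and no mild EAE mouse did. Naïve 2 alone covered 116 nt at chr19:47014920-47015035 in exon 1, where the gene Nt5c2 lies on the other strand, so those reads cannot be assigned to Ina with certainty. Naïve 1 and Severe EAE 4 each had footprints on both sides of the junction of exons 1 and 2, and Severe EAE 4 also at that of exons 2 and 3.

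Prph, peripherin, had 10 footprints, all of them coding and all with an end on an exon edge. Covered length was 139, 0 and 197 nt in Naïve 1 to 3, 207, 0 and 217 nt in Mild EAE 1 to 3, and 0, 0, 0 and 166 nt in Severe EAE 1 to 4. Among mice with a footprint the values spanned only 139 to 217 nt. The means were 112 ± 101 nt, 141 ± 123 nt and 41.5 ± 83.0 nt, and EAE minus naïve was -27.7 nt (exact permutation p = 0.958). Exon 4 was covered in Naïve 3, Mild EAE 1, Mild EAE 3 and Severe EAE 4. The 131 nt that Mild EAE 1 and 3 shared, chr15:99056788-99056918 on the plus strand, held 2 UAG and 3 AGGU, here with T for U and in capitals, of which AGGT and TAG overlap once.
Prph exon 4: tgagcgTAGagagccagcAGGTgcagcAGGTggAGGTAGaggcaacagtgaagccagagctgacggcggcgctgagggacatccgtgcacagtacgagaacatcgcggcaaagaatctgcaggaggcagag

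The Prph footprints also show which form of the mRNA was covered at 1 place. Between exons 4 and 5 lies a segment of 96 nt, chr15:99056937-99057032, that the main transcript splices out and that the annotated transcripts Prph-202 and Prph-204 keep. Retention of this segment is known to give a larger peripherin that impairs filament assembly. In Naïve 3 and Mild EAE 1 a footprint ended at the last base before the segment and another began at the first base after it, and 0 nt of the segment were covered in any mouse. The spliced sequence around that junction is printed as 30 bases of exon 4 in lower case and 30 bases of exon 5 in capitals, from chr15:99056907-99057062 without the segment, followed by the segment itself.
Prph exon 4 to exon 5: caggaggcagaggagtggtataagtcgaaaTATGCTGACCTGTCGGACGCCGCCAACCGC
Prph segment: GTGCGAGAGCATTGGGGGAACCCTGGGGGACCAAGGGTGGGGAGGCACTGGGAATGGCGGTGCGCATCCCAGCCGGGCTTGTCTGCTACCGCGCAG
The segment was 68.8% G or C and held neither UAG nor AGGU. Mild EAE 3 and Severe EAE 4 had footprints on both sides of the junction of exons 3 and 4, and Naïve 1 on both sides of that of exons 8 and 9.

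Counted by group, 2 of 3 naïve mice or more had a footprint in each of the 5 genes, beside 40.2% of footprinted protein-coding genes. Among mild EAE mice this held for Nefl, Nefm, Nefh and Prph but not Ina, beside 38.1%. Stretches of more than 1 nt covered in at least 2 mice of a group numbered 3 in naïve mice (288 nt, in Nefl, Nefm and Ina), 5 in mild EAE mice (537 nt, in Nefm, Nefh and Prph) and 0 in severe EAE mice. The 5 mild EAE stretches were coding, and of the 3 naïve stretches 1 was coding and 2 lay in 3′ untranslated regions. No severe EAE stretch was possible, since only Severe EAE 4 had a footprint in these genes. No naïve stretch overlapped a mild EAE stretch, but each rests on 2 or 3 mice. The same count over all genes was not made, so this is a description only. Mice of another group had a footprint at the stretches of Nefm exon 2, Ina, Prph and Nefh, but none did at the Nefl stretch or at that of Nefm exon 1. Without any 1 naïve mouse, 1 naïve stretch was left, and without any 1 mild EAE mouse, 2 or 3 of the mild EAE stretches.

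Over all 5 genes UAG occurred 7.21 times per 1000 footprint nt and 7.00 times per 1000 exonic nt of the main transcripts, counted on the gene's strand with overlaps allowed. In Nefl the values were 14.3 in footprints, 7.69 in exons and 12.1 in the 3′ untranslated region, which held 79.6% of its covered nt. The footprint and exon values were 9.72 and 5.69 in Prph, 3.25 and 5.70 in Nefm, 1.51 and 4.01 in Nefh, and 9.83 and 12.0 in Ina. AGGU occurred 4.97 times per 1000 footprint nt and 6.05 times per 1000 exonic nt, with Prph at 16.2 and 5.69. The other 4 genes had less AGGU in footprints than in exons, with 3.85 and 4.73 in Nefl, 2.44 and 6.30 in Nefm, 3.02 and 7.51 in Nefh, and 4.92 and 5.56 in Ina. UAG was present in 25 of 67 footprints (37.3%) against 50.7% of all footprints in protein-coding genes, and AGGU in 26 (38.8%) against 30.6%. The sets differ in class, with 99.9% of covered nt exonic in the filament genes and 66.1% over all protein-coding genes, so they are not matched. These counts describe letters in windows and were not tested.

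For none of the 5 genes did covered nt differ between groups beyond the spread among mice. In each of 4 comparisons the exact permutation test was run over all genes with a footprint in at least 3 of the mice compared, and p-values were adjusted by the Benjamini-Hochberg method over all of them. The number of genes called at an adjusted p under 0.05 was 0 of 6731 (0%) for EAE minus naïve, 0 of 4409 (0%) for severe EAE minus naïve, 0 of 5289 (0%) for mild EAE minus naïve and 0 of 4400 (0%) for severe minus mild EAE. At an unadjusted p under 0.05 the numbers were 416, 232, 0 and 124, of which 415, 231, 0 and 124 were lower in the group named first, and none was a filament gene. The design limits this: the smallest p that 3 against 7 mice allow is 0.00833, and at least 1122 genes would have to reach it for any call. In severe EAE minus naïve 2520 of 4409 genes, and in severe minus mild EAE 2515 of 4400, would have to reach the smallest exact permutation p of 0.0286. For mild EAE minus naïve no call was possible at all. The counts of 0 are thus weak evidence that no gene differed.

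Severe EAE minus naïve was -84.6 nt for Nefl, -147 nt for Nefm, 86.4 nt for Nefh, -58.5 nt for Ina and -70.5 nt for Prph, with exact permutation p-values between 0.371 and 1. The Nefm values of this paragraph are by the whole span, which contains Nefl. Outside Nefl, Nefm was at -62.75 nt in severe EAE minus naïve and at -243 nt in severe minus mild EAE. Across all genes tested in that comparison the median difference was -99.1 nt, and 3537 of 4409 genes were lower in severe EAE. With Severe EAE 4 as the only severe EAE mouse, the differences were 275, 306, 809, 531 and 54.0 nt, so each sign but that of Nefh turned. With the other 3 severe EAE mice left out, EAE minus naïve was 96.9 nt for Nefl, 240 nt for Nefm, 393 nt for Nefh, 11.5 nt for Ina and 35.5 nt for Prph, with exact permutation p-values from 0.229 to 0.971. Severe minus mild EAE was -122 nt for Nefl, -365 nt for Nefm, -168 nt for Nefh, 103 nt for Ina and -99.8 nt for Prph, with exact permutation p-values from 0.257 to 1, and Ina had too few footprinted mice to enter the adjustment.

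Of 38 genes related to neuronal intermediate filaments (other intermediate filaments, kinases of their tails, linkers, motors, turnover and RNA-binding proteins), 35 had a footprint and 21 had one in at least 5 mice. All 3 linkers of filaments to other parts of the cytoskeleton were among these. Dst, dystonin, a very large linker protein, was covered over 3536 to 10032 nt in naïve, 6838 to 10284 nt in mild EAE and 0 to 15756 nt in severe EAE mice. Macf1, the microtubule-actin crosslinker, was covered over 5087 to 10982, 3436 to 10539 and 0 to 13086 nt, and Plec, plectin, over 1487 to 2400, 1379 to 3900 and 0 to 4681 nt. The groups overlapped for all 3.

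Motors of axonal transport were covered in 6 to 9 mice. Dync1h1, the heavy chain of dynein, ranged over 1708 to 5310 nt in naïve, 2435 to 6513 nt in mild EAE and 0 to 7162 nt in severe EAE mice. Kif5a, the neuronal kinesin heavy chain that carries neurofilaments, ranged over 757 to 2302, 757 to 2021 and 0 to 3185 nt. Its relatives Kif5b and Kif5c ranged over 739 to 1161, 600 to 1360 and 0 to 2542 nt, and over 169 to 1271, 544 to 2029 and 0 to 2710 nt. Myo5a, a myosin that binds neurofilaments, ranged over 0 to 905, 346 to 1503 and 0 to 2660 nt. These genes are long, and covered nt between genes are not on a scale per length here.

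Of the 38 related genes, 14 had a footprint in Severe EAE 1, 2 or 3, among them the long genes Dst, Macf1, Plec, Dync1h1 and Kif5a in Severe EAE 1 and 3. Other related genes in at least 5 mice included Klc1, Trim2, Stub1, Arhgef28, Cdk5, Csnk1a1, Gsk3b, Mapk3, Nes, Synm and Vim. Of the 28 related genes tested for EAE minus naïve, 0 were called, 13 were higher and 15 lower, and the median difference was -34.3 nt against -26.3 nt over all 6731 genes. Arhgef28, an RNA-binding protein of the Nefl mRNA, was the only one with an unadjusted exact permutation p under 0.05 (p = 0.0167, adjusted p = 0.515), with 151, 403 and 161 nt in Naïve 1 to 3, 134, 0 and 0 nt in Mild EAE 1 to 3 and 153 nt in Severe EAE 4 alone among severe EAE mice.

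The genes most like each filament gene over the 10 mice were named by Pearson r of covered nt per 100000 covered nt, among 3168 protein-coding genes footprinted in at least 5 mice. They were Srek1 (r = 0.963), Taf15 (0.950) and Rrp1 (0.944) for Nefl, and Tuba1c (0.971), Psap (0.965) and Snx2 (0.962) for Nefm counted by its whole span, which contains Nefl. For Nefh they were Kif13b (0.971), Taok1 (0.969) and Clip2 (0.964), for Ina Sema6b (0.986), Hmgcs1 (0.979) and Gm28285 (0.962), and for Prph Mrps5 (0.991), Ppp4r1 (0.984) and Pla2g7 (0.978). The 10 points share the 3 short severe EAE lists, and the values are the highest of many, so they are a description only.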

How the data were processed

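The deposited files held, for each of the 10 immunoprecipitated mice, the chromosome, start and end of its footprints and nothing else. Before that, the authors trimmed reads (bcl2fastq 2.19.0.316, fastp), built contigs (rnaSPAdes), placed these on GRCm38 by spliced alignment (minimap2 2.17), removed sites found in input or IgG libraries and merged overlapping sites with bedtools. Cutting by subtraction shortens footprints, and contigs need enough overlapping reads, so low coverage leaves no footprint. Input and IgG libraries were not analysed here, and some genes and sequences are not reported here.

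Footprints were joined to GENCODE M21 genes in Python 3.11.15 with numpy 2.4.6, with coordinates counted from 1, and copies were sought with blastn 2.17.0. The class of a footprint is that of most of its length over all annotated transcripts of the gene, with coding sequence counted first. Stretches covered in several mice were classed by the main transcript. Group means of covered nt were set against each other by exact permutation (two-sided) with Benjamini-Hochberg adjustment across all genes footprinted in at least 3 of the mice compared. The threshold was an adjusted p of 0.05. Functions were tested on simulated data. Mice are separate animals, and intervals for counting error could not be given, since the files hold no read counts and depth is unknown from them. In 1 alternative values were scaled by the study's own read totals. Other alternatives were scaling by covered nt, a log2 scale, footprint number, the replicate block and leaving out mice. Mouse numbers follow the study's designations. The members, related genes and markers were chosen with earlier results of these data known. Named genes were the 5 members, genes that overlap their spans or footprints, related genes in at least 5 mice (values for at most 8, by summed covered nt, with Arhgef28 added after its values were seen) and the 3 most alike genes per member. The comparison of the exonic share within each mouse and 2 alternatives were chosen after seeing the data.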

Additional observations from a re-analysis of the deposited data

Results flagged for a closer look

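Severe EAE 4 stood apart from the other 3 severe EAE mice in every filament gene. It had 479 covered nt in Nefl, 604 in Nefm, 963 in Nefh, 786 in Ina and 166 in Prph, 2519 in all, where Severe EAE 1, 2 and 3 had 0. The gap between the highest mouse and its nearest neighbour was the whole range of the group in each of these. Its whole list, 31870 footprints against 2670, 209 and 673, stood apart in the same way. The smaller gap that Dixon's test asks for is passed by chance in about 1 of 20 groups of normally distributed values. That rate does not hold for covered nt, which cannot fall below 0. Any gene with a footprint in only 1 mouse of the group passes it. The values above are also not independent, since they come from 1 mouse and the Nefm span contains Nefl. Their cause was not tested.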

How the results depend on the processing

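No filament gene passed the threshold under any alternative: over 354 tests of covered nt, the smallest exact permutation p was 0.0333 (Ina, EAE minus naïve per 1000000 mapped unique reads, -51.2; adjusted p over all genes 0.196). Directions were less stable: 288 of 334 alternatives kept theirs. Per 1000000 mapped unique reads, the sign turned for Nefm in EAE minus naïve (-28.4), Nefh in severe EAE minus naïve (-6.80) and Nefl in mild EAE minus naïve (-7.23). Per 100000 covered nt it turned for Nefh in severe EAE minus naïve (-1.21). As log2(covered nt + 1) it turned in EAE minus naïve for Nefm (-3.17) and Nefh (-0.16), in severe EAE minus naïve for Nefh (-2.69) and in severe minus mild EAE for Ina (-0.31). As a number of footprints it turned for Nefm in EAE minus naïve (-1.29) and for Nefl in mild EAE minus naïve (-0.333), where Nefm and Prph were at 0. Within the mouse numbers shared by the labels (replicate block), EAE minus naïve was -6.33 nt for Nefl, 133 for Nefm, -102 for Nefh, -255 for Ina and -43.0 for Prph, with exact sign-flip p from 0.25 to 1. The numbers name separate animals and pair nothing. With Severe EAE 4 as the only severe EAE mouse, chosen after seeing the data, EAE minus naïve turned for Nefl (96.9), Ina (11.5) and Prph (35.5), severe EAE minus naïve for Nefl (275), Nefm (306), Ina (531) and Prph (54.0), and severe minus mild EAE for Nefl (237), Nefm (87.7), Nefh (554) and Prph (24.7). Nefm was counted by its whole span here and in the ranges below. Outside Nefl, Severe EAE 4 had 125 nt of Nefm, above the naïve mean of 94.0 nt and below the mild EAE mean of 274 nt. Severe minus mild EAE thus did not turn for Nefm outside Nefl.

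Leaving out each mouse in turn, EAE minus naïve ranged from -134 to 116 nt for Nefl, -155 to 130 for Nefm and -83.7 to 14.8 for Prph. Mild EAE minus naïve ranged from -138 to 186 for Nefl, -171 to 415 for Nefm and -26.7 to 100.0 for Prph. Severe EAE minus naïve ranged from -204 to 63.3 for Nefl, -154 to 169 for Nefh and -255 to 7.00 for Ina. Severe minus mild EAE ranged from -243 to 53.8 for Nefl, -563 to 24.0 for Nefm, -409 to 15.8 for Nefh and -93.3 to 197 for Ina. Ranges that kept their sign were 50.2 to 241 for Nefh and -208 to -77.3 for Ina in EAE minus naïve, 70.7 to 381 and -255 to -115 for the same genes in mild EAE minus naïve, -298 to -26.5 for Nefm and -127 to -28.0 for Prph in severe EAE minus naïve, and -171 to -62.0 for Prph in severe minus mild EAE. The extreme with the turned sign was reached in EAE minus naïve without Naïve 3 (Nefl, Prph) or Mild EAE 1 (Nefm), in mild EAE minus naïve without Mild EAE 1 (Nefl, Nefm) or Naïve 2 (Prph), in severe EAE minus naïve without Naïve 3 (Nefl), Severe EAE 4 (Nefh) or Severe EAE 1, 2 or 3 (Ina), and in severe minus mild EAE without Mild EAE 1 (Nefl, Nefm), Mild EAE 3 (Nefh) or Severe EAE 4 (Ina). In the same way the shared stretches were 1 in naïve whichever mouse was left out, 2 to 3 in mild EAE and 0 in severe EAE. The other alternatives for shared stretches and all 12 for the exonic share gave like values. The cause of these turns was not tested. The lists of positions hold no read counts, so an absent footprint is no measure of absent binding.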
